A study of Heterocephalus glaber with 2 samples.

Results

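The collagen hydroxylases and lysyl oxidases are the enzymes that modify collagen chains in the cell and crosslink the fibres outside it. They were taken as the 10 genes P4HA1, P4HA2, P4HA3, PLOD1, PLOD2, PLOD3, LOX, LOXL1, LOXL2 and LOXL3, picked out of the tables by gene name, with earlier results of these data known when the genes were listed. Each name matched 1 locus of the 24514 in the deposited tables, and all 10 loci passed the filter on low values, a mean FPKM of at least 1 (FPKM scales the fragments of a locus by its length and by the size of the library), as did 12753 loci in all. The tissue was dorsal skin at full thickness of the naked mole-rat (Heterocephalus glaber), a long-lived subterranean rodent, taken from young animals, 4 years old, and old animals, 19 years old, to compare the ages by RNA-seq. The labels give no treatment, genotype, sex or colony. Each age has 2 libraries, numbered 1 and 2 as in the tables, and pairs of values below are in the order number 1, number 2. Nothing in the labels says that an age's libraries are different animals, so the spread behind each p-value is that of the libraries alone and may be technical.

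Collagen chains become stable triple helices only after prolyl 4-hydroxylase has hydroxylated many of their prolines, a reaction in the endoplasmic reticulum that uses iron, ascorbate, oxygen and oxoglutarate. Lysyl hydroxylases act in the same compartment with the same cofactors and make hydroxylysine, which can carry sugars and which shapes the later crosslinks. Outside the cell the copper-dependent lysyl oxidases oxidise lysine and hydroxylysine side chains of collagen and elastin to aldehydes that form those crosslinks, and in skin these bonds give the dermis its tensile strength.

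Library number separated the samples more than age did. Across loci, which are not independent replicates, the Pearson correlation of log2 values was 0.948 for the number 1 libraries and 0.927 for the number 2 libraries. It was lower for libraries of one age, 0.712 for the young and 0.701 for the old. Small structural RNAs held 46.8% and 51.1% of the summed FPKM in the number 1 libraries and under 1% in the number 2 libraries. Mitochondrial loci went the other way, with 5.77% in young 1 and 4.06% in old 1 against 23.2% in young 2 and 29.6% in old 2. Ages are therefore compared within each number, as old 1 against young 1 and old 2 against young 2. Each is 1 library against 1 library with no replicate check. The depth behind the FPKM values is unknown, so no counting error can be given. Keratin transcripts marked all libraries as skin, with KRT10, of the upper living epidermis, between 1285 and 3823 FPKM, while skeletal muscle and adipocyte transcripts were also present (ACTA1, skeletal muscle actin, between 871 and 1832 FPKM).

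Of the 10 enzymes, P4HA1, P4HA2, LOX and LOXL2 had lower values at the old age in both numbers, PLOD2 and LOXL1 were higher in both, and P4HA3, PLOD1, PLOD3 and LOXL3 differed in opposite directions. Among all tested loci 23.1% were lower in both numbers, 26.7% were higher in both and 49.1% differed in opposite directions, so 4 lower, 2 higher and 4 opposed of 10 lie near the whole table in direction. Counted by number, 5 of the 10 were lower and 5 higher in old 1, against 41.2% and 58.7% of loci, and 7 were lower and 3 higher in old 2, against 54.6% and 44.4%. On the scale of log2(FPKM + 1), 5 of the 10 were at least 2-fold lower in old 2 than in young 2, P4HA1, P4HA2, PLOD1, LOX and LOXL2, against 5.55% of all tested loci. None was at least 2-fold lower in old 1 than in young 1, against 1.83% of loci, and P4HA3 alone was at least 2-fold higher there, against 2.36%. None was at least 2-fold higher in old 2 than in young 2, against 4.33% of loci, and none was 2-fold lower in both numbers, against 0.557%. Both old libraries lay below both young ones for P4HA2 and LOXL2, against 6.46% of loci, and above both for none, against 7.3%. The median log2 difference of the 10 was -0.07 in number 1 and -1.02 in number 2, beside 0.07 and -0.06 over all tested loci.

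By class, the mean log2 difference of the 3 prolyl 4-hydroxylase genes was 0.02 in number 1 and -1.21 in number 2. Their mean was -0.60 with an SD between the numbers of 0.87. In number 1 P4HA1 (-0.43) and P4HA2 (-0.82) were lower and P4HA3 (1.32), a gene near the filter, was higher. The number 1 mean turned to -0.06 under median-of-ratios scaling. With a minimum mean of 5 FPKM only P4HA2 was left in the class, at -0.82 in number 1 and -1.87 in number 2. The 3 lysyl hydroxylase genes averaged 0.22 and -0.50, a mean of -0.14 (SD 0.51). The 4 lysyl oxidase genes averaged -0.05 and -0.86, a mean of -0.46 (SD 0.57). In each class the number 2 value was the lower one. Without old 2 the mean was 0.10 for the prolyl 4-hydroxylases, 0.21 for the lysyl hydroxylases and -0.06 for the lysyl oxidases. Without old 1 these means were -1.29, -0.50 and -0.86. The within-number values are of 1 library against 1, with no test between classes.

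**Figure D1:**
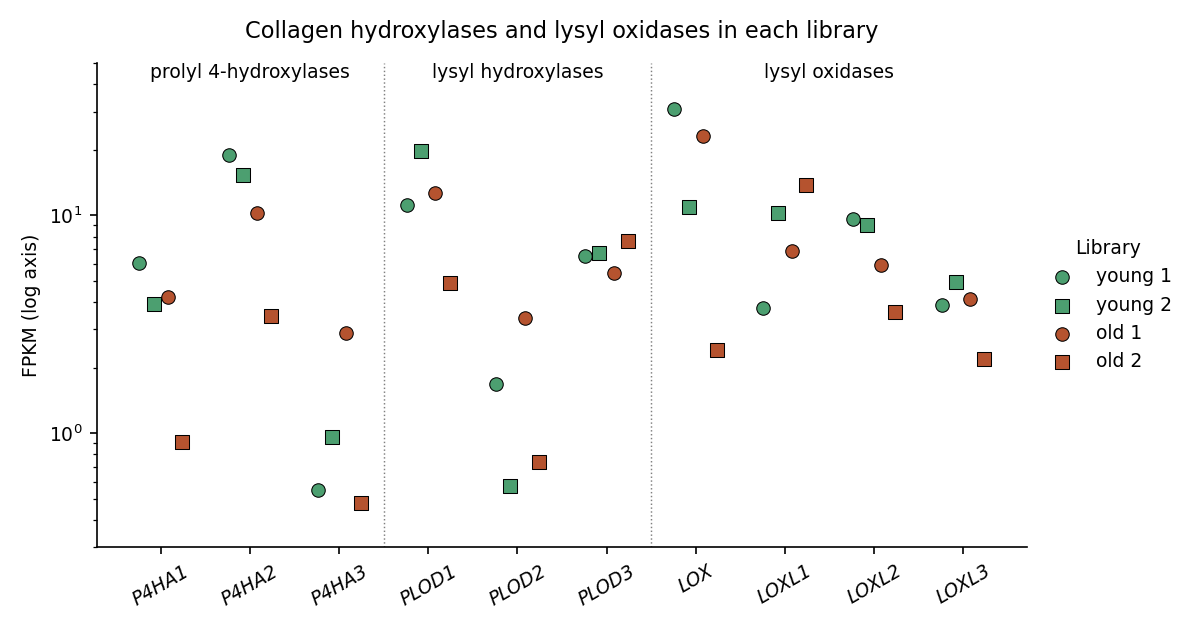
FPKM of each enzyme gene (log axis) in the 4 libraries, young in green and old in brown, circles for number 1 and squares for number 2, 1 point per library. P4HA2 and LOXL2 are the genes whose old libraries both lie below both young libraries; LOX spans 2.42 to 30.9 FPKM.

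No enzyme gene passed the test of age. Limma on log2(FPKM + 1) with age as its only term called 0 of the 10 genes and 0% of 12753 loci higher and 0% lower at adjusted p 0.05, with adjusted p = 1.00 for each of the 10. At unadjusted p under 0.05 it had 0 of the 10, against 0.196% of loci higher and 0.416% lower. With the library number as a second term limma called 0 of the 10, against 0.00784% of loci higher and 0.0157% lower. This fit has 1 residual degree of freedom, and no label says that the number pairs the libraries. At unadjusted p under 0.05 that fit had P4HA1, P4HA2, LOX and LOXL2 lower, 4 of the 10 against 3.61% of loci, and 0 higher against 2.96%. With 2 libraries an age, the smallest two-sided p of an exact permutation test is 0.33. In bulk skin, fewer cells of a type and less RNA per cell cannot be told apart.

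The catalytic alpha subunits of prolyl 4-hydroxylase held the gene of the 10 with the largest mean age difference, P4HA2. P4HA2 read 18.9 and 15.3 FPKM in the young libraries against 10.2 and 3.45 FPKM in the old ones. Both old libraries lay below both young ones, and the old level was 1.84-fold lower in number 1 and 4.44-fold lower in number 2. The log2 difference was -1.35 ± 0.62 (SE) with age alone and -1.35 ± 0.33 (SE) with the library number as a term, where limma gave unadjusted p = 0.00381 and adjusted p = 0.363. With age alone it was -0.68 without old 2. P4HA1, the alpha subunit found in most tissues, read 6.06 and 3.91 FPKM in the young libraries against 4.23 and 0.909 FPKM in the old ones. Old 1 lay between the young libraries and old 2 below all others, with 1.43-fold and 4.31-fold lower old levels in numbers 1 and 2. Its log2 difference was -0.90 ± 0.66 (SE) with age alone and -0.90 ± 0.31 (SE) with the number term, where limma gave adjusted p = 0.582. With age alone it was -0.17 without old 2 and -1.63 without old 1.

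P4HA3, the least abundant alpha subunit in most tissues, went the other way in number 1. It read 0.551 and 0.960 FPKM in the young libraries against 2.87 and 0.478 FPKM in the old ones. Only old 1 stood above 1 FPKM, and the old level was 5.21-fold higher in number 1 and 2.01-fold lower in number 2. Its log2 difference was 0.46 ± 0.69 (SE) with age alone and 0.46 ± 0.43 (SE) with the number term (limma adjusted p = 0.995). With age alone and old 1 left out it was -0.24. P4HA3 overlaps Pgm2l1 in RefSeq's table for assembly H.glaber_assembly_v1.0, and the sources used here do not say whether fragments were counted by strand, so fragments of these genes may not have been told apart. The same holds for P4HA1, which overlaps a long noncoding RNA gene there, and PLOD2, which overlaps a pseudogene. P4HA2 made up 74.1% and 75.9% of the summed alpha subunit FPKM in young 1 and 2 and 59.0% and 71.3% in old 1 and 2, the highest share in every library. The 3 alpha subunits summed to 25.5 and 20.2 FPKM in the young libraries against 17.3 and 4.84 FPKM in the old ones, 1.47-fold and 4.17-fold lower.

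P4HB, protein disulfide isomerase and the beta subunit that completes the enzyme, was far more abundant and differed by at most 1.33-fold within a number. It read 70.4 and 93.0 FPKM in the young libraries against 66.0 and 69.98 FPKM in the old ones. Its ratio to the summed alpha subunits was 2.76 in young 1 and 3.81 in old 1, and 4.61 in young 2 and 14.5 in old 2. This ratio of FPKM values within a library does not depend on how libraries were scaled. It was higher in the old library of both numbers, but old 1 lay below young 2, so the ages overlapped. P4HB also serves other proteins as a folding enzyme.

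Around the alpha subunits, 8 genes were tested, for P4HB, the prolyl 3-hydroxylases, their partners and P4HTM. Limma called 0 of the 8 in either direction with or without the number term. Of the 8 genes, 4 were lower and 1 higher within both numbers, against 23.1% and 26.7% of all tested loci. The higher one was P4HTM, at a locus that the tables join with WDR6, with log2 differences of only 0.02 and 0.05. The list medians were -0.12 in number 1 and -0.32 in number 2. CRTAP, the helper protein of prolyl 3-hydroxylase 1, read 34.0 and 56.0 FPKM when young against 30.4 and 47.4 FPKM when old. P3H1, prolyl 3-hydroxylase 1 itself, read 7.47 and 7.89 FPKM when young against 4.83 and 6.89 FPKM when old. P3H4, a family member without the hydroxylase activity that takes part in lysyl hydroxylation complexes, read 6.93 and 33.9 FPKM when young against 5.26 and 12.6 FPKM when old. All 3 had lower old values within each number. Of the 8 genes, 2 had both old libraries below both young ones, P4HB and P3H1, against 6.46% of all tested loci.

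**Figure D2:**
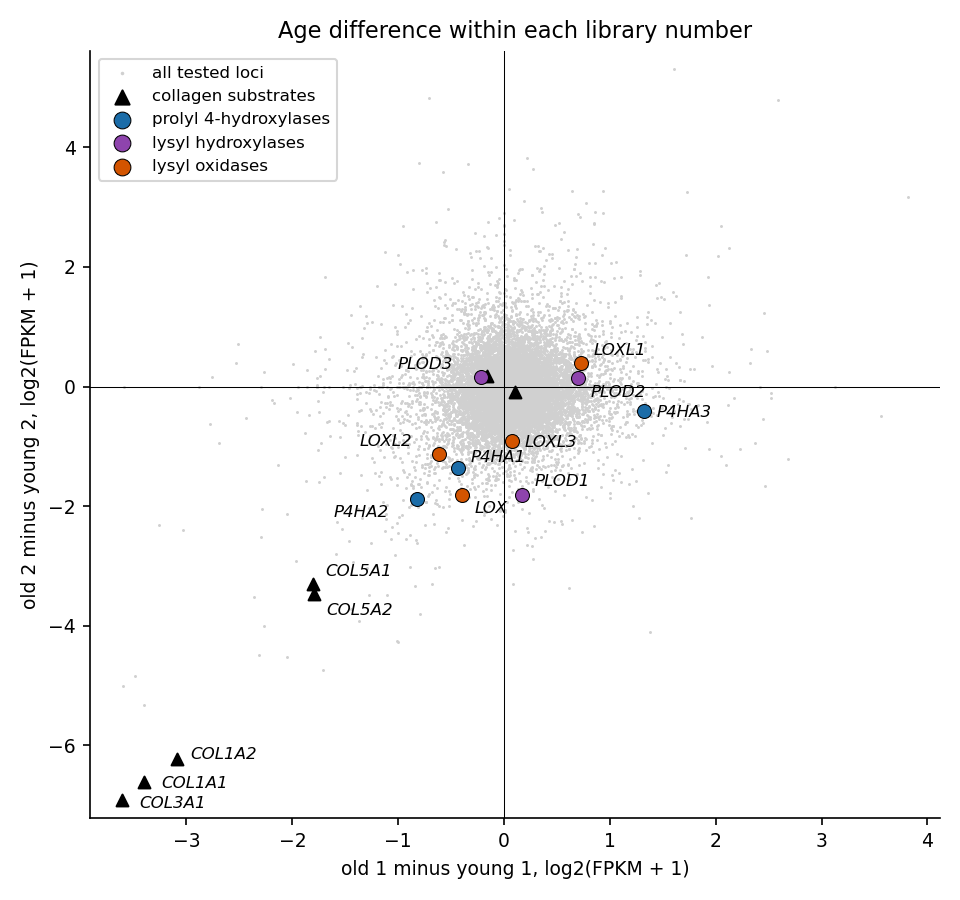
Old minus young difference on the log2(FPKM + 1) scale within number 1 (horizontal) and number 2 (vertical) for all 12753 tested loci (grey), the enzyme genes (coloured circles) and 7 collagen substrate genes (triangles), 1 point per gene. LOX, PLOD1 and P4HA2 lie between -1.87 and -1.81 on the vertical axis and between -0.82 and 0.17 on the horizontal, while COL1A1, COL1A2 and COL3A1 lie below -3 on both.

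Lysyl hydroxylases showed no common direction. PLOD1, which hydroxylates lysines in the triple helix, read 11.2 and 19.7 FPKM in the young libraries against 12.7 and 4.90 FPKM in the old ones. The number 1 libraries differed by 1.14-fold, with old higher, while old 2 was 4.02-fold lower than young 2 and the lowest of the 4. PLOD2, which acts on the lysines of the chain ends, read 1.68 and 0.574 FPKM in the young libraries against 3.36 and 0.739 FPKM in the old ones. The old library was higher within both numbers, by 2.00-fold and 1.29-fold, yet both number 1 libraries lay above both number 2 libraries, so the ages overlapped. PLOD3, which also adds sugars to hydroxylysine, had the narrowest range of the 10 genes.

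PLOD3 read 6.51 and 6.73 FPKM in the young libraries against 5.47 and 7.60 FPKM in the old ones. Its log2 differences were -0.22 in number 1 and 0.16 in number 2. As the other lysyl hydroxylases varied around it, PLOD3 held 33.6% and 24.9% of the class sum in the young libraries against 25.4% and 57.4% in the old ones, and was the most abundant of the class in old 2 only. With the number term the log2 differences were -0.82 ± 0.45 (SE) for PLOD1, 0.42 ± 0.31 for PLOD2 and -0.03 ± 0.27 for PLOD3. With age alone the SEs of the same differences were 0.64, 0.69 and 0.48. The limma adjusted p of these genes with the number term lay between 0.885 and 1.00. With age alone and old 1 left out, the value of PLOD2 was -0.24 and that of PLOD3 was 0.18. The value of PLOD1 was -0.21 without old 2, -0.44 without young 2 and -1.43 without old 1.

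Genes of hydroxylysine glycosylation and of the hydroxylation complex in the endoplasmic reticulum numbered 6, of which 5 were tested. Of these, 3 were lower and 1 higher within both numbers, against 23.1% and 26.7% of all tested loci. Limma called 0 of the 5 with or without the number term, and the list medians were -0.45 and -1.04. FKBP10, a prolyl isomerase that supports the hydroxylation of chain-end lysines, read 10.7 and 40.0 FPKM in the young libraries against 6.002 and 9.76 FPKM in the old ones. SERPINH1, the collagen chaperone HSP47, read 50.8 and 84.3 FPKM when young against 36.9 and 29.8 FPKM when old. They were among 3 of the 5 tested genes with both old libraries below both young ones, against 6.46% of all tested loci. Both were named partly for the size of their difference. FKBP10 and P3H4 are neighbouring genes in the RefSeq table, and both were lowest in old 1 and highest in young 2.

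**Figure D3:**
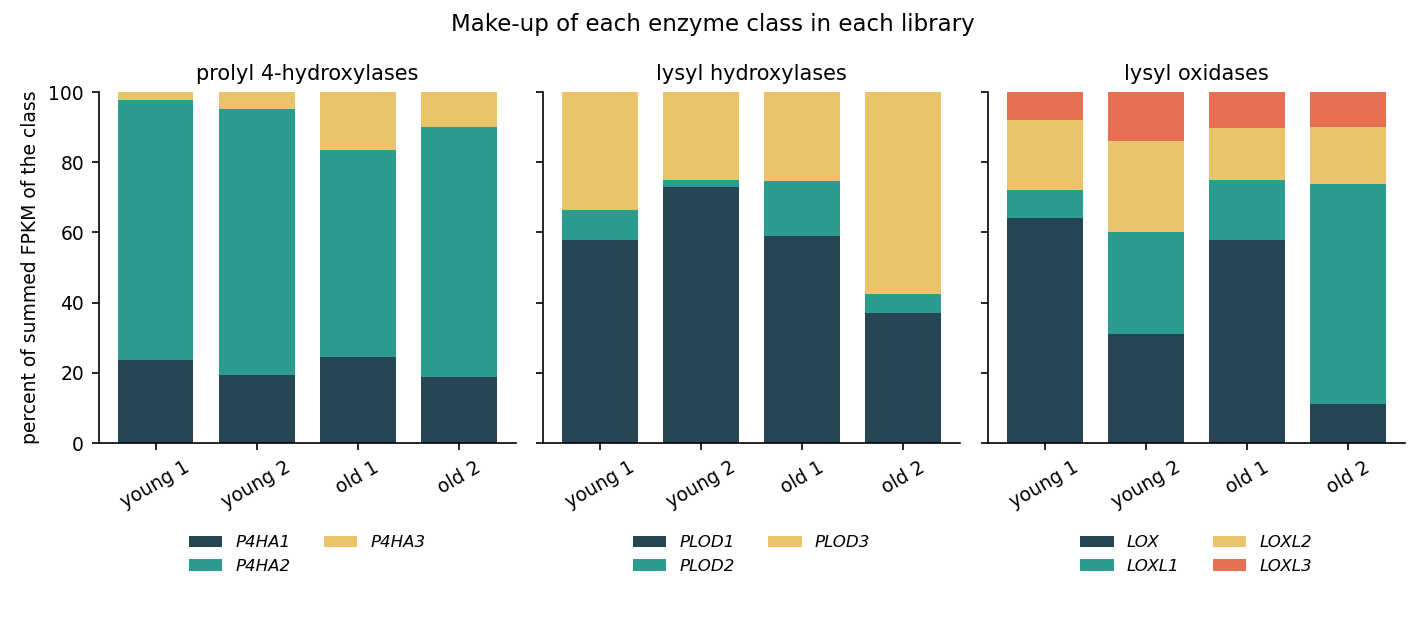
Percent of the summed FPKM of each enzyme class held by each gene (stacked bars, vertical axis from 0 to 100%) in each library. LOX holds 64.1% of the lysyl oxidase sum in young 1 and 11.03% in old 2, where LOXL1 holds 62.6%.

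The lysyl oxidases held both a lower and a higher gene. LOX, the founding enzyme, which crosslinks collagen and elastin, read 30.9 and 10.97 FPKM in the young libraries against 23.3 and 2.42 FPKM in the old ones. The old library was lower within both numbers, by 1.33-fold and 4.53-fold, but old 1 stood above young 2. LOX was the gene of the 10 with the widest gap by number, 2.82-fold higher in young 1 than in young 2 and 9.61-fold higher in old 1 than in old 2. Its log2 difference was -1.10 ± 1.06 (SE) with age alone and -1.10 ± 0.38 (SE) with the number term (limma adjusted p = 0.582). With age alone and old 2 left out it was 0.31.

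LOXL1, which in mice is needed for elastic fibre renewal, read 3.77 and 10.3 FPKM in the young libraries against 6.89 and 13.7 FPKM in the old ones. The old library was higher within both numbers, by 1.83-fold and 1.34-fold, and number 2 was higher than number 1 at both ages, so the ages overlapped. The log2 difference was 0.56 ± 0.65 (SE) with age alone and 0.56 ± 0.28 (SE) with the number term (limma adjusted p = 0.842). With age alone and young 1 left out it was -0.065. The ratio of LOX to LOXL1, which does not depend on how libraries were scaled, was 8.19 in young 1 and 3.38 in old 1, and 1.07 in young 2 and 0.176 in old 2. It was 2.43-fold lower in the old library of number 1 and 6.05-fold lower in that of number 2, while the number 1 libraries both lay above the number 2 libraries. LOX was thus the most abundant of the 10 genes in young 1 and old 1, PLOD1 in young 2 and LOXL1 in old 2.

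LOXL2, which crosslinks collagen IV of basement membranes among other substrates, read 9.62 and 9.08 FPKM in the young libraries against 5.94 and 3.60 FPKM in the old ones. Both old libraries lay below both young ones, and the young libraries were close to each other. The old level was 1.62-fold lower in number 1 and 2.52-fold lower in number 2, a log2 difference of -0.87 ± 0.50 (SE) with age alone and -0.87 ± 0.28 (SE) with the number term, where limma gave unadjusted p = 0.0147 and adjusted p = 0.534. With age alone it was -0.58 without old 2. LOXL3, a related oxidase with scavenger receptor domains, read 3.89 and 4.96 FPKM in the young libraries against 4.15 and 2.18 FPKM in the old ones. Old 2 was the lowest library and the other 3 lay within 1.28-fold. Its log2 difference was -0.41 ± 0.52 (SE) with age alone and -0.41 ± 0.31 (SE) with the number term (limma adjusted p = 0.967). With age alone it was -0.067 without old 2 and -0.76 without old 1. In the RefSeq table LOXL3 overlaps Htra2, so fragments of these genes may not have been told apart. LOXL4, the remaining member of the family, read 4.23 and 3.38 FPKM when young against 3.82 and 3.70 FPKM when old, with both old values between the young ones.

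The partners and activators of lysyl oxidases numbered 10, LOXL4 included. Of these, 4 were lower within both numbers and 1 higher within both, against 23.1% and 26.7% of all tested loci. The list medians were -0.05 and -0.75, and limma called 0 of the 10 with or without the number term. POSTN, or periostin, a matrix protein that promotes the activation of LOX, read 152 and 86.7 FPKM in the young libraries against 55.2 and 5.62 FPKM in the old ones. PCOLCE, which enhances the protease that trims procollagen, read 30.1 and 76.3 FPKM when young against 11.7 and 8.46 FPKM when old, at a locus that the tables join with MOSPD3. Of the 10 genes, 2 had both old libraries below both young ones, POSTN and PCOLCE, against 6.46% of all tested loci. Both were named partly for the size of their difference. FN1, or fibronectin, on which LOX activation takes place, read 214 and 85.0 FPKM when young against 192 and 34.5 FPKM when old, so its ages overlapped. THBS1, or thrombospondin 1, named after its values were seen, was the gene higher in both numbers, at 19.0 and 7.46 against 39.4 and 15.9 FPKM.

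The 7 substrate genes had median log2 differences of -1.80 and -3.47, with the fibrillar collagens far below the basement membrane chains. Old levels of COL1A1, the main chain of type I collagen, were 10.6-fold lower within number 1 and 99.6-fold within number 2. Those of COL1A2, its second chain, were 8.54-fold and 77.7-fold lower, and those of COL3A1, type III collagen, 12.2-fold and 126-fold lower. COL5A1 and COL5A2, chains of type V collagen, were 3.59-fold and 3.62-fold lower in number 1 and 10.5-fold and 13.0-fold lower in number 2. COL4A1 and COL4A2, the basement membrane chains, differed by at most 1.13-fold in either number. Of the 7 substrates tested, 5 were lower in both numbers, against 23.1% of all tested loci. Limma called 0 of the 7 with or without the number term (lowest adjusted p = 0.0945, COL3A1, with it).

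The sum of COL1A1, COL1A2 and COL3A1 came to 5953 and 8536 FPKM in the young libraries against 553 and 85.3 FPKM in the old ones. Per 1000 FPKM of this sum, prolyl 4-hydroxylase alpha subunits read 4.28 and 2.36 FPKM when young against 31.3 and 56.7 FPKM when old. Lysyl hydroxylases stood at 3.26 and 3.16 FPKM per 1000 in young skin and 39.0 and 155 in old skin, and lysyl oxidases at 8.09 and 4.13 against 72.8 and 257. Enzyme FPKM per collagen FPKM was higher in both old libraries for all 3 classes, from 7.32-fold (prolyl 4-hydroxylases, number 1) to 62.3-fold (lysyl oxidases, number 2). The collagen sum itself was 10.8-fold lower in old 1 and 100-fold lower in old 2, while no class sum was more than 1.11-fold higher. These ratios thus follow the collagen sum, and any locus that fell less than it would show a rise.

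Cofactor supply was covered by 9 genes for ascorbate, glucose, iron, zinc and copper handling, 8 of them tested. Of the 8 tested, 6 were lower and 0 higher in both numbers, against 23.1% and 26.7% of all tested loci. The list medians were -0.11 and -0.67. Limma called 0 with or without the number term. TFRC, the transferrin receptor that brings iron into cells, read 16.4 and 6.44 FPKM when young against 7.34 and 2.66 FPKM when old, lower by 2.23-fold and 2.43-fold. SLC31A1, the main copper importer, read 10.6 and 5.64 FPKM when young against 8.06 and 2.34 FPKM when old. ATOX1, which carries copper to the secretory pathway pumps, read 90.5 and 481 FPKM when young against 129 and 338 FPKM when old, with opposite directions in the numbers. SLC39A13, a zinc transporter whose loss impairs collagen lysyl hydroxylation in people and mice, read 9.20 and 23.2 FPKM when young against 8.06 and 11.7 FPKM when old.

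P4HA1, P4HA2, PLOD2 and LOX are known targets of hypoxia-inducible factors in other mammals, so 12 other genes induced by or sensing low oxygen were set beside them. Of these 4 were higher and 3 lower in both numbers, against 26.7% and 23.1% of all tested loci. The list medians were -0.17 and 0.11, and limma called 0 of the 12 with or without the number term. LDHA, lactate dehydrogenase A, read 189 and 139 FPKM when young against 176 and 145 FPKM when old. BNIP3, a mitophagy receptor, read 25.1 and 10.6 FPKM when young against 29.4 and 162 FPKM when old. VEGFA, the vascular growth factor, read 14.1 and 9.51 FPKM when young against 5.29 and 7.13 FPKM when old.

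**Figure D4:**
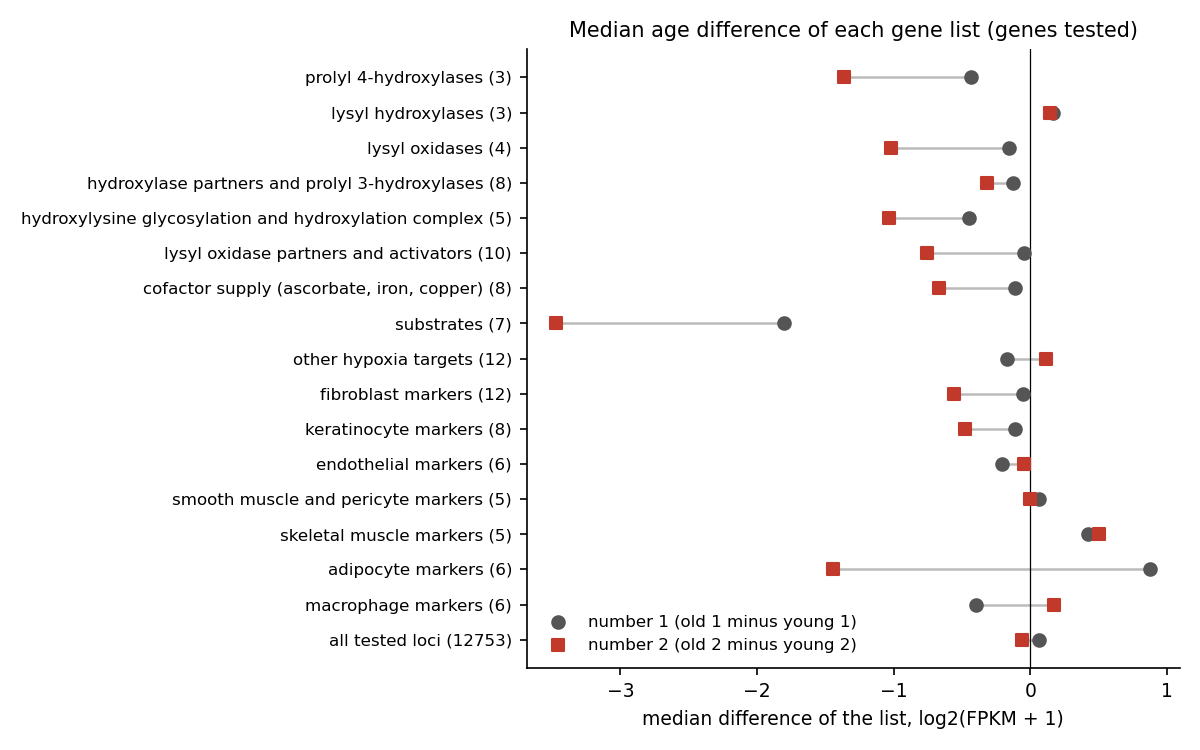
Median old minus young difference on the log2(FPKM + 1) scale of each gene list, circles for number 1 and squares for number 2, with the number of genes tested in parentheses. Prolyl 4-hydroxylases and lysyl oxidases stand at -0.43 and -0.16 in number 1 and -1.36 and -1.02 in number 2. Lysyl hydroxylases stand at 0.17 in number 1 and 0.14 in number 2. The adipocyte list spans 0.88 to -1.44.

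Markers of the cell types in skin were set beside these differences. Of 12 fibroblast markers 8 were lower and 1 higher in both numbers, against 23.1% and 26.7% of all tested loci. The list medians were -0.06 in number 1 and -0.56 in number 2. The summed FPKM of the 12 markers was 1135 and 1441 when young against 1314 and 885 when old, and none was at the floor of the tables. The 6 adipocyte markers summed to 472 and 265 FPKM when young against 782 and 152 FPKM when old, with medians of 0.88 in number 1 and -1.44 in number 2. The 5 smooth muscle and pericyte markers tested had medians of 0.06 and -0.0039, and the 6 endothelial markers had medians of -0.21 and -0.05. The part of these lists in the enzyme differences was not tested.

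Keratinocyte markers, 8 in all, had medians of -0.12 and -0.48 and summed to 3529 and 7604 FPKM in young 1 and 2 and 3563 and 6130 in old 1 and 2. The 5 skeletal muscle markers found had medians of 0.42 and 0.50 and summed to 2374 to 2551 FPKM in young and 2999 to 3225 FPKM in old skin, and the 6 macrophage markers had medians of -0.40 and 0.18. Of the markers of cartilage, which uses the same enzymes, the defining genes COL2A1, COL9A1 and MATN1 were at most 0.134 FPKM in every library, and of the 4 cartilage markers found only SOX9 was tested.

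Genes with the closest pattern over the 4 libraries, by Euclidean distance between log2(FPKM + 1) values centred on each gene's own mean, were found for the most abundant gene of each class. For P4HA2 they were TUBB (distance 0.10), FAM212B (0.11) and MCM4 (0.18). For PLOD1 they were CMTM5 (0.07), C10ORF99 (0.16) and STMN1 (0.19), and for LOX they were SLC7A1 (0.21), ACER3 (0.25) and ZNF652 (0.25). TUBB, a beta tubulin, read 133 and 119 FPKM when young against 75.3 and 30.3 FPKM when old. With 4 libraries such likeness is a description of these libraries.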

How the data were processed

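Total RNA from full-thickness skin with an RNA integrity number above 7.5 was depleted of ribosomal RNA with Ribo-Zero Gold and sequenced as paired reads of 150 bases on an Illumina HiSeq instrument, per the labels' protocols. Cutadapt, FastQC, Bowtie2 and TopHat2 are named in the submitters' processing notes. No build, annotation, strand setting or quantifier is given in the sources used here, so no coordinates are printed. The authors deposited FPKM values, 1 table per library, with a floor of 0.0001 FPKM. Low values showed no steps of whole reads (of 1983 low loci, 10 shared the commonest ratio of young 1 to old 1 to 4 digits), so depth is unknown and no count test was used.

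Libraries took their age from the GEO sample their table belongs to, and their number from the column header. Symbols came from the tables, or for 1450 loci from the RefSeq table by NCBI gene number. The highest-mean locus per symbol was used. Limma 3.58.1 in R 4.3.3 was fitted on log2(FPKM + 1) to the 12753 loci whose mean FPKM reached 1. Age was the term, the moderation used a mean-variance trend, and two-sided p-values were adjusted by Benjamini-Hochberg with a threshold of 0.05. The fit was also run on simulated data. The loci changed there were more abundant than any of the enzymes and changed by more than the enzymes' mean age differences. That run therefore does not show what the fit can detect for the enzymes. Fold changes on that scale understate low genes, and ratios in the text are of FPKM itself. The enzymes and all gene lists were chosen with earlier results of these data known. Named genes were the 10 enzymes, LOXL4, the substrates, and per list the 2 with the highest mean and the 2 with the largest difference in 1 direction in both numbers. TUBB and others like it came from the distance rule. KRT10, ACTA1, SOX9, COL2A1, COL9A1 and MATN1 were named as markers, and THBS1 and P4HTM after their values were seen. ELN, MYH2, TTN and ACAN were on the lists but matched no locus by symbol, so they were not analysed here. Alternatives were another pseudocount, other filters, scalings and moderation, summed loci, each library left out, and the number as a term. Plots used Python 3.11.15 with pandas 2.3.3, numpy 2.4.6 and matplotlib 3.10.9.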

Additional observations from a re-analysis of the deposited data

How the results depend on the processing

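Under all 16 other settings limma called 0 of the enzyme genes tested (6 of the 10 with a minimum mean of 5 FPKM), with a lowest adjusted p of 0.363 (P4HA2, with the library number as a term). Over all loci it called 0 as reported, and 3 with the replicate block, meaning the number as a second term, 3 with that term and a pseudocount of 0.1, 0 with that term after small structural RNA and mitochondrial loci were removed (lowest adjusted p = 0.0654), 0 with that term and median-of-ratios scaling (0.0937), and from 0 to 38 when a library was left out (31 without young 1, 2 without young 2, 38 without old 1). The block with another pseudocount or with median-of-ratios scaling was chosen after seeing the data. The libraries share only a number, and no label says that it pairs them. Deviations from the age means correlated at 0.823 between same-numbered libraries, which cannot show a pairing with 2 libraries an age. The block with any 1 library left out has no residual degrees of freedom and was not run.

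The log2 difference of PLOD3 turned to 0.0177 when small structural RNA and mitochondrial loci were removed and the rest rescaled, with or without the replicate block. Among fits without 1 library, ranges were -0.24 to 1.15 for P4HA3, -0.24 to 1.09 for PLOD2, -0.24 to 0.18 for PLOD3, -2.51 to 0.31 for LOX (above 0 without old 2) and -0.065 to 1.18 for LOXL1 (below 0 without young 1). P4HA3 and PLOD2 were below 0, and PLOD3 above 0, without old 1. P4HA1, P4HA2, PLOD1, LOXL2 and LOXL3 kept their direction in every fit but not their size. Without 1 library P4HA1 ran from -1.63 to -0.17, P4HA2 from -2.02 to -0.68, PLOD1 from -1.43 to -0.21, LOXL2 from -1.17 to -0.58 and LOXL3 from -0.76 to -0.067, each closest to 0 without old 2. Class means were -0.60 (prolyl 4-hydroxylases), -0.14 (lysyl hydroxylases) and -0.46 (lysyl oxidases). Without 1 library they ran from -1.29 to 0.10, -0.50 to 0.21 and -0.86 to -0.06, highest without old 2. The prolyl 4-hydroxylase and lysyl hydroxylase means thus changed sign without old 2. Under the settings that kept all libraries the class means ran from -1.35 to -0.52, -0.43 to -0.09 and -0.54 to -0.39. The values -1.35 and -0.43 came from the minimum mean of 5 FPKM, which left 1 prolyl 4-hydroxylase and 2 lysyl hydroxylase genes. With all genes of these 2 classes kept, the lowest means were -0.70 and -0.15. Each value moved by less than the SD of the 2 numbers (0.87, 0.51 and 0.57). That SD comes from the same libraries, so this is no check of stability. Depth is unknown, so the precision of genes near 1 FPKM, such as P4HA3 and PLOD2, cannot be given.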
